A study of Homo sapiens with 9 samples.

Results

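The aminoacyl-tRNA synthetases are the enzymes that join each amino acid to its tRNA, and they were followed here through their mRNA. The members were taken by gene symbol, in the spelling of the count table, from a fixed list of 36 genes among the 59050 symbols of that table. They were 20 genes of cytosolic enzymes and 16 genes of mitochondrial enzymes, and all 36 passed the filter on low counts, a CPM above 1 in at least 3 samples, where CPM is the count of a gene scaled to a common library size (TMM). The study measured RNA in MEC1, an established cell line from chronic lymphocytic leukemia (CLL), to learn how culture in a bioprinted scaffold changes its transcriptome. There were 3 samples from conventional culture (2D), 3 from cells embedded in a 3D bioprinted hydrogel and collected at day 7 (3D_7d), and 3 from such scaffolds at day 14 (3D_14d). Every group was the same cell line, with no drug or genetic treatment named, and the labels give no culture time for the 2D samples. All sample titles begin with MECPGK, and what the letters PGK stand for is not explained. RNA from the scaffolds was taken with TRIzol, treated with DNase I and passed over a column, and RNA from 2D was taken with the column kit alone. A difference between 2D and 3D therefore cannot be told apart from the extraction, while both time points shared it. In RNA from bulk samples, a lower level in all cells and fewer cells that express the gene cannot be told apart either. The labels do not say that replicates were separate cultures or prints, and p-values measure the spread between these samples only.

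Each synthetase recognises its own amino acid and the matching tRNAs, and the charged tRNA is then carried to the ribosome. Separate nuclear genes serve the cytosol and the mitochondrion for most amino acids, whereas GARS (glycine) and KARS (lysine) each make both forms from a single gene. EPRS charges both glutamate and proline, and the cytosolic phenylalanine enzyme is built from the subunits FARSA and FARSB. Several cytosolic enzymes are held together with scaffold proteins in the multisynthetase complex. Uncharged tRNA activates the kinase EIF2AK4, which raises translation of the transcription factor ATF4, and genes of several cytosolic synthetases are known targets of ATF4. In B cells, as elsewhere, charged tRNA is needed for every protein made, immunoglobulin included.

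The libraries held 54662799 to 85968686 counts each. All 8 B cell markers were detected, with a summed CPM of 3302 to 5130, whereas the 8 markers of T and NK cells summed to 1.40 to 7.24 and the 8 myeloid markers to 1.23 to 5.17, with CD3D, CD3G, LYZ and CD68 at no more than 3 counts in any sample. CD68 was listed at 0 throughout, which need not mean absence, since the treatment of reads with several alignments or overlapping genes is not given. The 8 stromal markers summed to 23.4 to 27.2 in 2D, 37.9 to 55.0 at day 7 and 54.5 to 80.0 at day 14, and this rise was that of PECAM1 (means of 13.8, 42.2 and 64.3 CPM). The other tested markers of that list, COL1A1 and PDGFRB, were lower at day 7, and 5 were too low to test. Counts of ribosomal protein genes were 4.10% to 4.82% of all counts in 2D, 1.66% to 1.82% at day 7 and 1.88% to 3.27% at day 14, and the part of these shifts in the results below was not tested. Replicate 1 of 3D_14d stood apart from its group. Its root mean square difference from the other replicates over tested genes was 0.771 and 0.831 on the log2 scale, against 0.588 between those 2, 0.482 to 0.578 among the 3D_7d samples and 0.321 to 0.404 in 2D. Where leaving it out changed a call or moved a printed log2 fold change by over 1.5 times, the value without it is given.

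At day 7 the cytosolic synthetases that passed the test were higher or lower, and the mitochondrial ones that passed were all higher. The 20 cytosolic genes took 0.695% ± 0.0338 of all counts in 2D (SD, n = 3), 0.581% ± 0.0483 at day 7 and 0.517% ± 0.103 at day 14. The 16 mitochondrial genes took 0.0652% ± 0.0032 in 2D, 0.0876% ± 0.0049 at day 7 and 0.0533% ± 0.0092 at day 14. In the day 7 samples the cytosolic share lay below and the mitochondrial share above that of every 2D sample. At day 14 both shares were below every 2D sample. These are shares of untransformed counts, which the sum of all other genes also moves, so the genes are described singly below.

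Levels are compared between genes as RPKM, which is CPM divided by the exon length in kilobases. That length covers all annotated exons of a gene, so an order of genes by RPKM depends on it. In 2D the means of the cytosolic genes ran from 19.1 to 278 RPKM with a median of 81.4, and those of the mitochondrial genes from 0.460 to 34.7 RPKM with a median of 10.7. The highest means in 2D were those of GARS (278 ± 9.69 RPKM, n = 3), SARS (222 ± 5.65), AARS (199 ± 12.7), MARS (189 ± 14.6) and YARS (173 ± 4.16). AARS and MARS lay within the spread of their samples, as AARS ran from 184 to 207 RPKM and MARS from 172 to 199. The lowest cytosolic gene in 2D by RPKM was FARSB at 19.1 ± 1.39, which has the longest exon length of the 20 (7006 bases). By CPM the lowest was RARS, with a mean of 70.0 against 134 for FARSB. TARS2 was the highest mitochondrial gene at 34.7 ± 2.01 RPKM. SARS2 was the lowest, but its level is uncertain. Neighbouring genes share 83.1% of its exonic bases, and 67.4% of its exonic bases are shared on its own strand.

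Against 2D, 15 of the 36 members were higher and 7 were lower at day 7 in edgeR's quasi-likelihood test at a Benjamini-Hochberg adjusted p of at most 0.05. Over all 13463 tested genes 22.2% were higher and 21.2% lower. Among the cytosolic genes 6 of 20 were higher, 7 were lower and 7 did not pass, with a median log2 fold change of -0.06. Among the mitochondrial genes 9 of 16 were higher, 0 were lower and 7 did not pass, with a median of 0.54. The median of all tested genes was -0.0039. At an unadjusted p of at most 0.05 edgeR placed 1 mitochondrial gene lower, NARS2 (log2 fold change -0.46, unadjusted p = 0.0266, adjusted p = 0.0588), which DESeq2 also called (adjusted p = 0.0396). Without 3D_14d replicate 1, which enters the shared estimate of the spread, 12 mitochondrial genes were higher and 1 lower at day 7. AARS2 (0.41, adjusted p = 0.0273), EARS2 (0.55, adjusted p = 0.0291) and YARS2 (0.37, adjusted p = 0.0333) joined those higher, and NARS2 was lower (-0.47, adjusted p = 0.0229). In that fit 6 cytosolic genes were higher and 9 lower, with EPRS and IARS joining those lower. Without 2D replicate 3 or without 3D_7d replicate 3, 6 mitochondrial genes were higher.

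**Figure D1:**
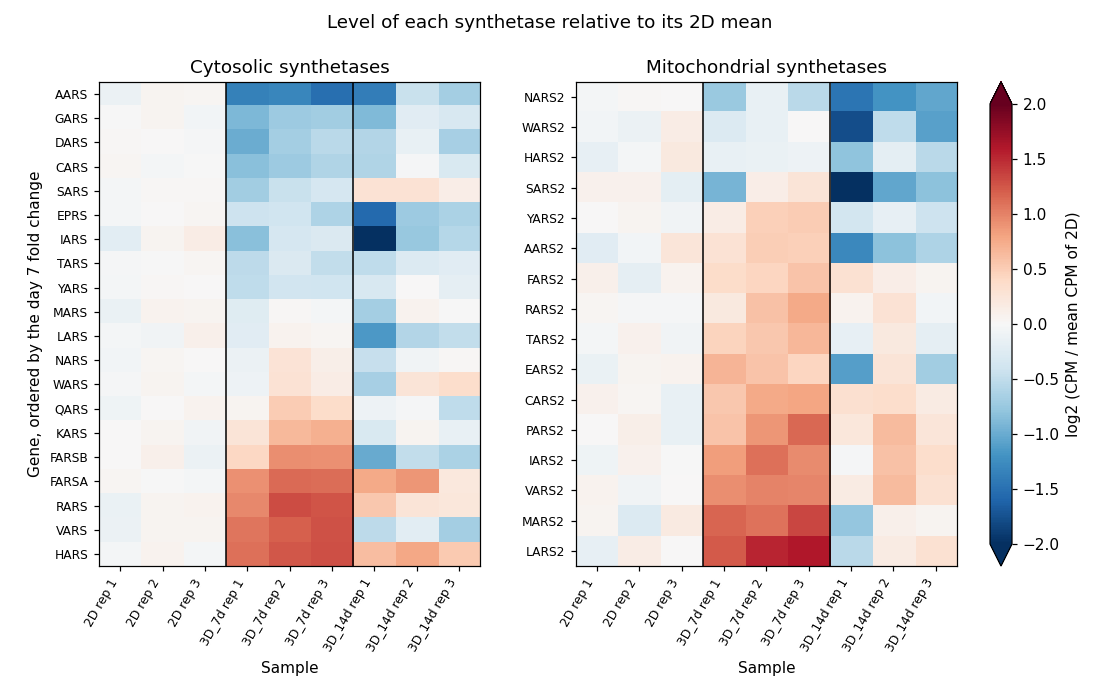
Each row is a synthetase gene and each column a sample, and the colour is the log2 ratio of its CPM to the mean CPM of the 2D samples, with rows ordered by the fold change at day 7. The cytosolic panel at day 7 runs from blue (AARS, log2 fold change -1.38) to red (HARS, 1.21), the mitochondrial panel at day 7 is mostly red, and the column of 3D_14d replicate 1 is the bluest of its group for many genes.

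The 7 cytosolic genes that fell at day 7 were AARS, GARS, DARS, CARS, SARS, TARS and YARS, the enzymes for alanine, glycine, aspartate, cysteine, serine, threonine and tyrosine. Of these only DARS belongs to the multisynthetase complex. AARS had 641, 721 and 712 CPM in the 3 samples of 2D, 272, 281 and 243 at day 7, and 266, 509 and 433 at day 14. It was low in every 3D sample, and the 3D_14d samples spread from the day 7 level to nearer that of 2D. Its log2 fold change was -1.38 (SE 0.20, adjusted p = 0.000214) at day 7 and -0.78 (SE 0.20, adjusted p = 0.00899) at day 14, and it was 0.60 higher at day 14 than at day 7 (adjusted p = 0.0397). Without 3D_14d replicate 1 these last values were -0.55 and 0.84. The call between the time points held in 10 of 19 alternative settings, over which its adjusted p ran from 0.000522 to 0.123, and it was lost without 3D_14d replicate 2 or 3 or any single 3D_7d sample. Both calls against 2D held in all 19.

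GARS, which makes the cytosolic and the mitochondrial glycine enzyme, had 693, 719 and 671 CPM in 2D, 373, 420 and 430 at day 7, and 378, 591 and 557 at day 14. The 2D samples were above every 3D sample, and the later samples other than replicate 1 were above those of day 7. The log2 fold change was -0.77 (SE 0.17, adjusted p = 0.00271) at day 7 and -0.45 (SE 0.17, adjusted p = 0.0509) at day 14, or -0.27 (adjusted p = 0.0811) without 3D_14d replicate 1. The lack of a call at day 14 held in 10 of 19 alternatives, and DESeq2 called GARS lower there (adjusted p = 0.0304). In GARS 12.3% of exonic bases are shared with the divergent gene GARS-DT on the other strand.

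CARS, the cysteine enzyme, had 226, 216 and 221 CPM in 2D, 124, 133 and 145 at day 7, and 146, 216 and 179 at day 14. All day 7 samples were below 2D, and at day 14 a sample reached the 2D range. The log2 fold change was -0.72 (SE 0.15, adjusted p = 0.00252) at day 7 and -0.29 (adjusted p = 0.157) at day 14, or -0.16 (adjusted p = 0.338) without 3D_14d replicate 1. DARS, the aspartate enzyme, had 294, 291 and 284 CPM in 2D, 146, 182 and 199 at day 7, and 193, 260 and 183 at day 14. Every 3D sample was below 2D, with a log2 fold change of -0.72 (SE 0.17, adjusted p = 0.00383) at day 7 and -0.45 (adjusted p = 0.0485) at day 14. The day 14 call was lost without 3D_14d replicate 1 (-0.38, adjusted p = 0.0783) and held in 9 of 19 alternatives.

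SARS, the serine enzyme, turned around between the time points. It had 427, 445 and 448 CPM in 2D, 270, 324 and 348 at day 7, and 536, 537 and 485 at day 14. The day 7 samples lay below 2D and the day 14 samples above both groups. It fell by 0.49 on the log2 scale at day 7 (SE 0.14, adjusted p = 0.0114), stood at 0.24 (adjusted p = 0.186) at day 14, and was 0.73 higher at day 14 than at day 7 (SE 0.14, adjusted p = 0.00259). TARS (adjusted p = 0.021) and YARS (adjusted p = 0.0197) each fell by 0.43 on the log2 scale at day 7, and neither passed at day 14.

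The 6 cytosolic genes that rose at day 7 were HARS, VARS, RARS, FARSA, FARSB and KARS, for histidine, valine, arginine, phenylalanine with its pair of subunits, and lysine. HARS had 109, 117 and 109 CPM in 2D, 238, 263 and 273 at day 7, and 170, 191 and 159 at day 14. The groups did not overlap, with day 7 highest and day 14 between it and 2D. Its log2 fold change was 1.21 (SE 0.13, adjusted p = 3.01e-05) at day 7 and 0.64 (SE 0.13, adjusted p = 0.00255) at day 14. HARS and HARS2, the mitochondrial histidine enzyme, start next to each other on opposite strands and share 2.2% of the exonic bases of HARS and 3.1% of those of HARS2. HARS2 did not pass at day 7 (-0.13, adjusted p = 0.553) and fell at day 14 (-0.49, adjusted p = 0.037), a call that was lost without 3D_14d replicate 1 (-0.35, adjusted p = 0.07).

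VARS, the valine enzyme, had 114, 128 and 129 CPM in 2D, 260, 285 and 300 at day 7, and 86.3, 106 and 76.9 at day 14. It was high in every day 7 sample, and all day 14 samples were below those of 2D. The log2 fold change was 1.19 (SE 0.15, adjusted p = 8.07e-05) at day 7 and -0.46 (SE 0.15, adjusted p = 0.0284) at day 14, where the call held in 15 of 19 alternatives. RARS, the arginine enzyme of the multisynthetase complex, had 63.7, 73.0 and 73.4 CPM in 2D, 137, 173 and 168 at day 7, and 102, 83.6 and 82.0 at day 14. It rose by a log2 fold change of 1.19 (SE 0.15, adjusted p = 8.10e-05) at day 7, and at day 14 it stood above every 2D sample without passing the test (0.35, adjusted p = 0.0824). KARS, which serves both compartments, had 316, 328 and 301 CPM in 2D, 375, 496 and 514 at day 7, and 253, 329 and 286 at day 14. It was highest in each day 7 sample (log2 fold change 0.55, SE 0.16, adjusted p = 0.0125, a call held in 13 of 19 alternatives) and overlapped 2D at day 14 (-0.12, adjusted p = 0.57, or -0.031 without 3D_14d replicate 1).

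Both subunits of the cytosolic phenylalanine enzyme rose at day 7 and went apart at day 14. FARSA, the catalytic subunit, had 247, 241 and 236 CPM in 2D, 457, 527 and 525 at day 7, and 406, 443 and 281 at day 14. FARSB had 134, 143 and 124 CPM in 2D, 178, 254 and 252 at day 7, and 66.8, 94.7 and 86.4 at day 14. FARSA was above 2D in every 3D sample, whereas FARSB was above 2D at day 7 and below it at day 14. The log2 fold changes of FARSA were 1.06 (SE 0.17, adjusted p = 0.000362) at day 7 and 0.64 (SE 0.17, adjusted p = 0.00969) at day 14, and those of FARSB were 0.77 (SE 0.17, adjusted p = 0.00363) and -0.69 (SE 0.17, adjusted p = 0.00823). Per length, FARSA was 5.65 to 6.39 times FARSB in 2D, 6.97 to 8.59 times at day 7 and 10.9 to 20.4 times at day 14. The size of this ratio depends on the exon lengths used (2090 and 7006 bases), while its change between groups does not. This ratio was computed after the values of both genes had been seen and carries no test.

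MARS (methionine), NARS (asparagine) and WARS (tryptophan) passed in no comparison. WARS, whose gene is known to respond to interferon, had 537, 566 and 533 CPM in 2D, 506, 669 and 607 at day 7, and 344, 650 and 699 at day 14. The 3D samples lay on both sides of 2D, with log2 fold changes of 0.12 (adjusted p = 0.68) at day 7 and 0.05 (adjusted p = 0.881) at day 14, or 0.31 (adjusted p = 0.0752) without 3D_14d replicate 1. EPRS, IARS, LARS and QARS did not pass at day 7, at log2 fold changes of -0.47 (adjusted p = 0.0731), -0.46 (adjusted p = 0.314), -0.04 (adjusted p = 0.885) and 0.32 (adjusted p = 0.129). Without 3D_14d replicate 1, EPRS (-0.48, adjusted p = 0.00169) and IARS (-0.48, adjusted p = 0.0184) were lower at day 7. DESeq2 also called EPRS lower (adjusted p = 0.0438).

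**Figure D2:**
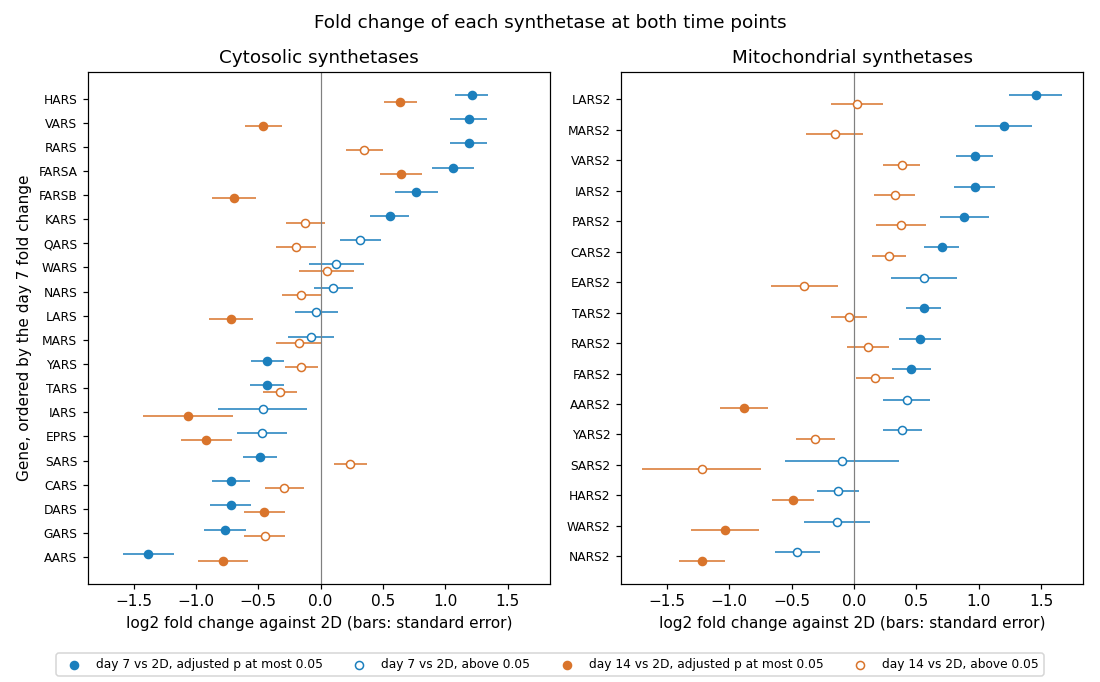
Points are the log2 fold changes of each gene against 2D at day 7 (blue) and day 14 (orange), bars are standard errors, and filled points passed an adjusted p of 0.05 in edgeR's quasi-likelihood test. At day 7 the 9 filled mitochondrial points are all above 0, and at day 14 the 4 filled mitochondrial points are all below 0. The filled points of FARSB and VARS change sides between the time points.

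At day 7 the mitochondrial genes LARS2, MARS2, VARS2, IARS2, PARS2, CARS2, TARS2, RARS2 and FARS2 rose, which serve leucine, methionine, valine, isoleucine, proline, cysteine, threonine, arginine and phenylalanine. LARS2 had 21.0, 26.1 and 23.6 CPM in 2D, 54.9, 67.6 and 71.8 at day 7, and 16.2, 26.5 and 29.1 at day 14. All day 7 samples were far above the rest, and day 14 overlapped 2D. Its log2 fold change was 1.46 (SE 0.21, adjusted p = 0.000208) at day 7 and 0.02 (SE 0.21, adjusted p = 0.943) at day 14, or 0.24 (adjusted p = 0.229) without 3D_14d replicate 1. MARS2 followed at 1.20 (SE 0.23, adjusted p = 0.0012), with a mean of 13.4 ± 2.06 CPM in 2D and 30.8 ± 2.61 at day 7. VARS2 and IARS2 rose by log2 fold changes of 0.97 (SE 0.15, adjusted p = 0.0003) and 0.97 (SE 0.16, adjusted p = 0.000576), and the other 5 lay between 0.46 and 0.89. Of these, FARS2 and RARS2 kept their call in 12 of 19 alternatives each. The share of counts from mitochondrially encoded genes was 2.30% to 2.83% in 2D, 1.44% to 1.64% at day 7 and 1.62% to 2.82% at day 14.

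At day 14 against 2D, 2 of the 36 members were higher and 11 were lower, where 19.0% of all tested genes were higher and 17.2% lower. HARS and FARSA were higher. The lower cytosolic genes were AARS, DARS, EPRS, IARS, LARS, FARSB and VARS, and the lower mitochondrial genes were NARS2, AARS2, WARS2 and HARS2. No mitochondrial gene was higher in edgeR, where VARS2 missed (log2 fold change 0.38, unadjusted p = 0.0236, adjusted p = 0.061), and DESeq2 called that 1 gene (adjusted p = 0.0389). The median log2 fold change was -0.24 for the cytosolic genes and -0.10 for the mitochondrial genes, against 0.02 for all tested genes. Without 3D_14d replicate 1 the cytosolic counts were 2 higher and 6 lower with a median of -0.20, and the mitochondrial counts were 2 higher (IARS2 and VARS2) and 3 lower with a median of 0.05.

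NARS2, the mitochondrial asparagine enzyme, had 34.7, 36.4 and 35.9 CPM in 2D, 21.4, 32.2 and 24.4 at day 7, and 13.0, 15.5 and 17.4 at day 14. The groups did not overlap and stood in the order 2D, day 7, day 14. The log2 fold change at day 14 was -1.22 (SE 0.18, adjusted p = 0.000364), and -1.11 (adjusted p = 0.000494) without 3D_14d replicate 1. AARS2, the mitochondrial alanine enzyme, had 35.0, 39.6 and 48.6 CPM in 2D, 50.2, 57.8 and 57.1 at day 7, and 16.7, 23.3 and 26.9 at day 14. It was highest at day 7 (0.42, adjusted p = 0.0894) and lowest at day 14 (-0.88, SE 0.19, adjusted p = 0.00367). Without 3D_14d replicate 1, AARS2 passed as higher at day 7 (0.41, adjusted p = 0.0273). WARS2, for tryptophan, had 12.3, 11.8 and 14.2 CPM in 2D, 10.5, 11.5 and 12.8 at day 7, and 3.73, 8.99 and 5.99 at day 14. Day 7 overlapped 2D (-0.14, adjusted p = 0.71) and every day 14 sample was below both (-1.03, SE 0.27, adjusted p = 0.0103).

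EPRS, the bifunctional member of the complex, had 220, 227 and 232 CPM in 2D, 170, 171 and 148 at day 7, and 77.3, 137 and 145 at day 14. All 3D samples were below 2D and replicate 1 of 3D_14d was lowest. The log2 fold change at day 14 was -0.92 (SE 0.20, adjusted p = 0.00381), and -0.67 (adjusted p = 0.000737) without that replicate. LARS, the leucine enzyme of the complex, had 145, 142 and 160 CPM in 2D, 128, 156 and 153 at day 7, and 67.1, 99.3 and 106 at day 14. It fell after day 7, with a log2 fold change of -0.72 (SE 0.17, adjusted p = 0.00638) at day 14 and -0.54 (adjusted p = 0.0054) without 3D_14d replicate 1. IARS, the isoleucine enzyme, had 53.0 CPM in 3D_14d replicate 1 and 180 and 206 in the others of that group, against 264 to 337 in 2D. Its log2 fold change of -1.06 (adjusted p = 0.0352) became -0.66 (adjusted p = 0.00924) without that library. The call held in 15 of 19 alternatives and was lost with DESeq2 (adjusted p = 0.0624), with only the 6 samples compared (0.0595), and without 2D replicate 2 (0.0686) or 3 (0.085).

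**Figure D3:**
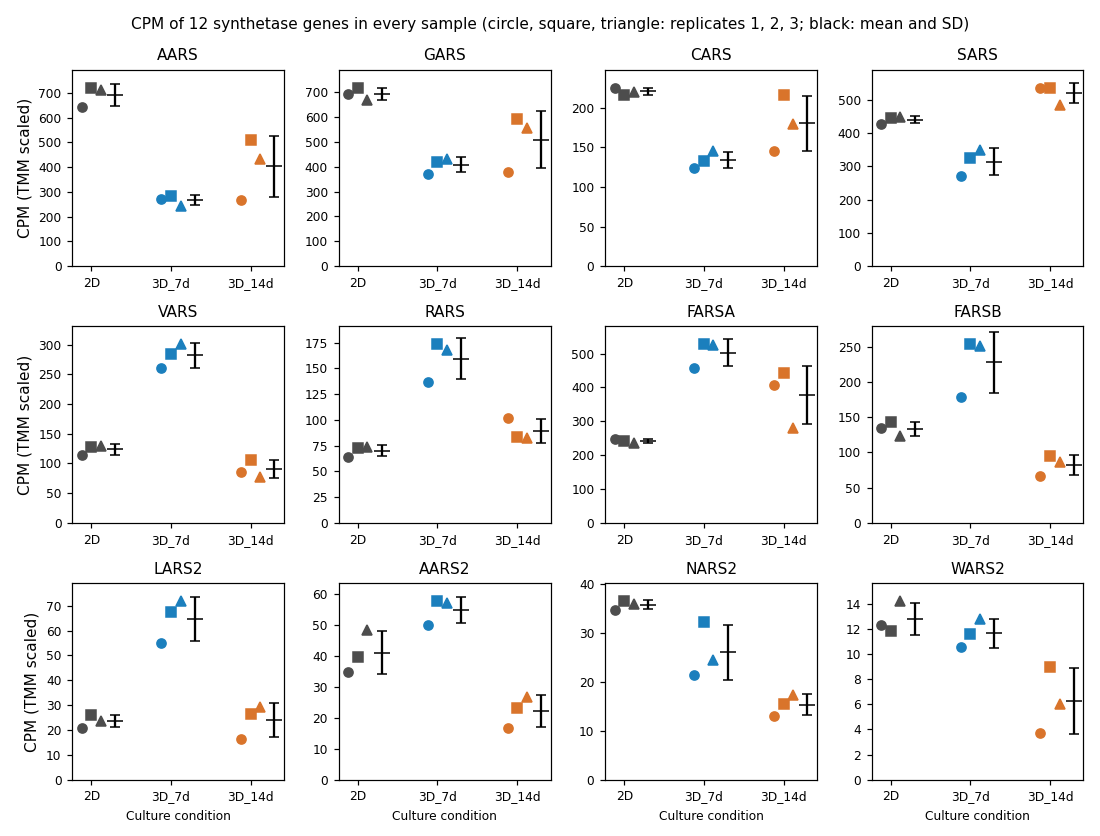
Each panel plots the TMM-scaled CPM of a gene in the 9 samples from an axis that starts at 0, with the mean and SD of each group beside the points. AARS, GARS and CARS are low at day 7, VARS, RARS, FARSA, FARSB and LARS2 are high at day 7, and NARS2, AARS2 and WARS2 are lowest at day 14.

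Between day 7 and day 14, where the extraction was the same, 2 cytosolic genes were higher at day 14 (AARS and SARS) and 7 were lower (VARS, FARSB, RARS, LARS, KARS, HARS and QARS). Of the mitochondrial genes 0 were higher and 11 were lower. Here edgeR and DESeq2 gave the same count of 0 higher, as did an unadjusted p of at most 0.05, and all 16 had a negative log2 fold change, from -1.44 (LARS2) to -0.29 (FARS2), with a median of -0.67. Over all tested genes 14.5% were higher and 13.6% lower, with a median of -0.0012. The steepest falls were those of VARS (-1.65, SE 0.15, adjusted p = 7.10e-05), FARSB (-1.46, SE 0.18, adjusted p = 0.000214), LARS2 (-1.44, SE 0.21, adjusted p = 0.000705), MARS2 (-1.36, SE 0.23, adjusted p = 0.00155) and AARS2 (-1.30, SE 0.19, adjusted p = 0.00072). Without 3D_14d replicate 1 there were 5 higher and 7 lower cytosolic genes, with CARS, GARS and YARS joining AARS and SARS, and 0 higher and 11 lower mitochondrial genes. This comparison shares the 3D samples with those against 2D.

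For amino acids with an enzyme in each compartment, the ratio of the cytosolic to the mitochondrial RPKM was taken within each sample, which leaves out library scaling. At day 7 the mean ratio was lower than in 2D in 10 of 16 pairs and higher in 6. The 10 include SARS with the uncertain SARS2, whose groups overlapped, and EPRS with both EARS2 and PARS2. AARS was 20.2 to 25.3 times AARS2 in 2D, 5.87 to 7.48 times at day 7 and 21.9 to 30.2 times at day 14. CARS was 2.17 to 2.51 times CARS2 in 2D, 0.808 to 0.881 times at day 7 and 1.20 to 1.75 times at day 14. At day 7 CARS2 was thus the higher by RPKM, but by CPM CARS was (means of 134 and 92.8). Which of these mRNAs was the more abundant therefore depends on the exon lengths used (3123 and 1838 bases). MARS was 37.5 to 54.0 times MARS2 in 2D, 16.04 to 20.3 times at day 7 and 40.6 to 45.6 times at day 14. HARS went the other way, from 0.972 to 1.25 times HARS2 in 2D to 2.70 to 3.01 times at day 7 and 2.23 to 3.04 times at day 14. Each of these differences between 2D and day 7 lay outside the spread of the samples, at an exact two-sided permutation p of 0.1, which is the smallest that 3 against 3 samples allow (0.114 adjusted over 16 pairs). No pair could therefore pass a threshold of 0.05.

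**Figure D4:**
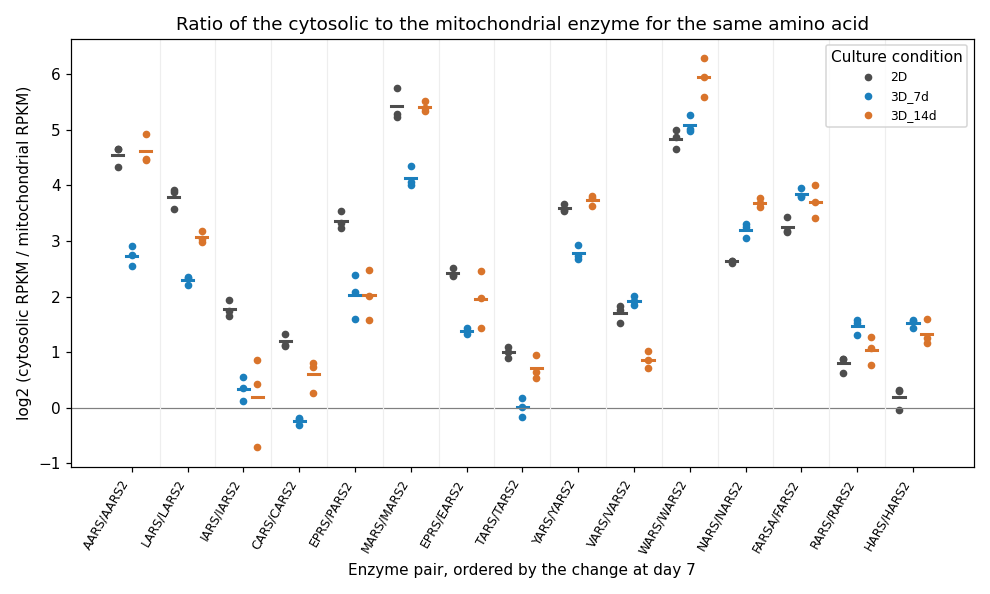
Each point is a sample, each line the mean of a group, and the vertical axis is the log2 ratio of the RPKM of the cytosolic gene to that of the mitochondrial gene for the same amino acid. SARS with SARS2 is left out because of the shared exons of SARS2. The day 7 points lie below those of 2D for AARS, LARS, IARS, CARS, MARS and others on the left, and above them for RARS and HARS on the right, and those of AARS and MARS overlap 2D again at day 14.

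The 8 synthetases of the multisynthetase complex (RARS, DARS, EPRS, QARS, IARS, LARS, KARS and MARS) did not move as a block at day 7. RARS and KARS were then higher and DARS lower, with a median of -0.06, where 22.2% of all tested genes were higher and 21.2% lower. At day 14 DARS, EPRS, IARS and LARS were lower, with a median of -0.32, where 19.0% of all tested genes were higher and 17.2% lower. RARS alone stood above 0 (0.35, adjusted p = 0.0824), joined by MARS (0.03) without 3D_14d replicate 1. Between the time points 0 were higher and RARS, LARS, KARS and QARS lower, with a median of -0.56 (-0.34 without that replicate). DARS alone stood above 0 there, again joined by MARS (0.13) without that replicate. Over all tested genes 14.5% were higher and 13.6% lower. Among the 3 scaffold proteins of the complex, AIMP2 rose at day 7 (log2 fold change 1.17, adjusted p = 0.000134), from a mean of 44.6 to 100.7 CPM. AIMP1 (-0.13, adjusted p = 0.495) and EEF1E1 (0.15, adjusted p = 0.66) did not pass at day 7.

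Other steps of tRNA charging were taken from lists of known factors. The mitochondrion makes its glutaminyl-tRNA by amidation and formylates its initiator methionyl-tRNA, and of the genes for these routes, QRSL1 (log2 fold change 0.59, adjusted p = 0.00303), GATB (0.59, adjusted p = 0.00608) and MTFMT (0.48, adjusted p = 0.0275) rose at day 7, and GATC (0.05, adjusted p = 0.83) did not pass. Of the genes listed for the delivery of charged tRNA to the ribosome, the cytosolic EEF1A1 (-1.83, adjusted p = 1.45e-05) and EEF1B2 (-0.94, adjusted p = 0.00188) fell and the mitochondrial TUFM (0.72, adjusted p = 0.00167) rose at day 7. EEF1A1 has many near-identical pseudogenes that may share its reads. EEF1D (-0.55, adjusted p = 0.087) and TSFM did not pass at day 7. Leaving out 3D_14d replicate 1 made EEF1D pass as lower in the 3D_7d samples (-0.57, adjusted p = 0.00892). Its contrast of 3D_14d with 2D then passed too (-0.73, adjusted p = 0.0067). EEF1G, a gene that every cell uses, was listed at 0 in every sample, which need not mean absence. Of the 3 factors that edit mischarged tRNA, DTD1 and DTD2 passed in no comparison and AARSD1 was too low to test.

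Of 23 genes for tRNA processing and export, 11 were higher and the other 12 did not pass at day 7, where 22.2% of all tested genes were higher and 21.2% lower (without 3D_14d replicate 1, which changes the shared spread, 3 were lower), with ELAC2 (1.50, adjusted p = 1.21e-05) and ELAC1 (1.30, adjusted p = 0.000163), both of the tRNase Z family, in front. At day 14, 8 were higher, among them POP4 and RTCB, and 3 were lower (5 without 3D_14d replicate 1). Of 20 genes of RNA polymerase III and its factors, which transcribe tRNA, 10 were higher and 2 lower at day 7 and 3 were higher and 2 lower at day 14 (6 and 3 without 3D_14d replicate 1). Over all tested genes 19.0% were higher and 17.2% lower at day 14 in the fit of all 9 samples. In that fit the day 14 counts of this list were no larger than the background. The share over all genes without 3D_14d replicate 1 is not given here. GTF3C1, a subunit of the factor TFIIIC, was among those higher at day 7 (1.19, adjusted p = 4.40e-05).

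The list of the amino acid stress response held EIF2AK4 and its activator GCN1, ATF4, and genes that act downstream. Of its 20 genes, 1 (GCN1, 1.11) was higher and 17 were lower at day 7, EIF2AK4 did not pass (0.33, adjusted p = 0.0953, and higher without 3D_14d replicate 1, adjusted p = 0.0357), and the median of their log2 fold changes was -1.76. Against 2D, 10 were lower at day 14 and the other 10 did not pass (median -0.65, and 8 lower without 3D_14d replicate 1). Between the time points 16 rose and 1 fell, with a median of 1.22. Without 3D_14d replicate 1 the day 7 counts of this list were 2 higher and 18 lower. Over all tested genes 22.2% were higher and 21.2% lower at day 7, 19.0% and 17.2% at day 14, and 14.5% and 13.6% between the time points. ATF4 itself averaged 616 ± 5.10 CPM in the 2D samples (SD, n = 3), 200.1 ± 8.22 in 3D_7d and 550.4 ± 78.0 in 3D_14d, with log2 fold changes of -1.62 (adjusted p = 7.23e-06) and -0.16 (adjusted p = 0.375), the last -0.27 (adjusted p = 0.0778) without 3D_14d replicate 1. CHAC1, a glutathione-degrading enzyme and ATF4 target, averaged 65.7 ± 1.46, 2.89 ± 0.442 and 41.7 ± 10.9 CPM in the same order. Whether ATF4 has a part in the levels of the synthetases was not tested. Of 13 tested interferon response genes, 3 were higher at day 7, a share near the 22.2% of all tested genes, and the other 10 did not pass. At day 14, 7 were higher and 1 lower, with IFIT1 (2.26, adjusted p = 0.000427) and MX1 (1.13, adjusted p = 0.000456) at the smallest p-values. The shares over all tested genes at day 14 were 19.0% higher and 17.2% lower. Without 3D_14d replicate 1, 4 interferon response genes were higher and 0 lower at day 7, and 8 were higher and 1 lower at day 14. WARS did not pass at either time and was not tested against these genes.

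Promoters from RefSeq (GRCh38.p14, the build of the count table), 250 bases before to 50 after the start, were found for 30 of the 36 members, in 39 windows, and not for DARS, LARS, YARS, VARS, AARS2 and VARS2. They were searched on both strands for TGATGNAA, the letters of the composite element that ATF4 binds with C/EBP partners. Of all 35116 windows, 3.62% held it, as did the windows of 2.71% of 9441 tested genes with a promoter entry. It was found for 4 of the 5 cytosolic members with a window that fell at day 7 (AARS, GARS, CARS and TARS, not SARS), for 0 of the 5 that rose, for 3 of the 6 that did not pass (IARS, MARS and NARS) and for 1 of the 14 mitochondrial members (YARS2). Among all tested genes the share was 3.28% of those lower and 2.40% of those higher at day 7. The matches and 10 bases on either side are printed for the 4 genes that fell and for IARS, MARS and NARS, which did not pass at day 7, 5′ to 3′ on the strand of the gene, with the match in capitals. The match reads on the gene's own strand in NARS and on the opposite strand in the other 6.

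AARS: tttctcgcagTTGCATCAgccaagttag

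GARS: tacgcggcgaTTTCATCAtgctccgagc

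CARS: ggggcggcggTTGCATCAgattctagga

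TARS: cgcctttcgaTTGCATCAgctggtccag

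IARS: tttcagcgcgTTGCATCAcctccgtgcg

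MARS: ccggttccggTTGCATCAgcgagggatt

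NARS: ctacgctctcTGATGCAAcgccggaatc

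These stretches lie at chr16:70289676-70289703 (AARS, minus strand), chr7:30594835-30594862 (GARS, plus strand), chr11:3057408-3057435 (CARS, minus strand), chr5:33440957-33440984 (TARS, plus strand), chr9:92293693-92293720 (IARS, minus strand), chr12:57488054-57488081 (MARS, plus strand) and chr18:57621805-57621832 (NARS, minus strand). The matches began at positions -187 (AARS), -33 (GARS), -2 (CARS), 2 (TARS), -13 (IARS), -4 (MARS) and 14 (NARS) from the first transcribed base of their window, which is counted as 0. GARS, CARS and TARS each have 2 windows with different starts, and only 1 of the 2 holds the match. MARS, IARS and NARS, which hold a match as well, had day 7 log2 fold changes of -0.08, -0.46 and 0.10 that did not pass.

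The interferon-stimulated response element, searched as GAAA, any 2 bases and GAAA, was found in 3.57% of all windows, for 4.31% of tested genes with a promoter entry and, of the members, for WARS and EARS2. The stretch in WARS lies at chr14:100375383-100375412 on the minus strand, from position -55 of that window's start, and is shown because WARS is known to respond to interferon.

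WARS: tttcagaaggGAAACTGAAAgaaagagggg

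The E-box CACGTG was found in 7.26% of all windows, for 12.95% of tested genes with a promoter entry, for 1 of 16 cytosolic members (IARS) and for 3 of 14 mitochondrial members (CARS2, EARS2 and MARS2). A match in letters is a description of the window and not evidence of binding.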

How the data were processed

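RNA of MEC1 cells was sequenced as single reads from SMART-Seq v4 libraries (9 samples, 3 per group). Per the submitters' notes, the authors used Trimmomatic (0.39) for trimming, STAR (2.5.3a) for alignment to GRCh38 and featureCounts (1.6.4) for counting, and deposited raw counts per gene symbol. The strand setting and the handling of reads with several alignments are not given in the sources used here. The filter was a CPM over 1 in 3 or more samples, which kept 13463 of 51726 symbols with a count. With edgeR (4.0.16, R 4.3.3), TMM factors and 1 quasi-likelihood fit of all 9 samples gave the 3 contrasts, adjusted by Benjamini-Hochberg over all retained genes, with a threshold of 0.05. The depth, 54662799 to 85968686 counts per sample, sets the counting error, which is widest for low genes (SARS2 had 13 to 100 counts).

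Values in every sample are given for the 4 members with the smallest p in each contrast and direction among those that passed, and for WARS, WARS2, GARS, KARS and EPRS. From other lists the 2 genes with the smallest p per direction are named, and all genes of lists of up to 6, apart from some genes that are not reported here. Members and lists were chosen with earlier results of these data known. Alternatives were DESeq2 (1.42.0), other scalings, filters, samples, a replicate block, a gene length trend removed by loess and leaving out each sample. The scripts were tested on simulated data.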

Additional observations from a re-analysis of the deposited data

Results flagged for a closer look

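For 12 of the 18 members given in every sample, the fold changes at day 14 and day 7 against 2D differed from each other, tested as the contrast between the time points in the same edgeR fit, at an adjusted p of at most 0.05. The 18 were chosen in part for the smallest p in this same contrast, so the count is a description, and over all tested genes 14.5% were higher and 13.6% lower. The difference of the log2 fold changes (day 14 minus day 7) was -1.65 for VARS, -1.46 for FARSB, -1.44 for LARS2, -1.30 for AARS2, -0.90 for WARS2, -0.84 for RARS, -0.77 for NARS2, -0.68 for LARS, -0.67 for KARS and -0.57 for HARS. It was 0.60 for AARS, a call held in 10 of 19 alternatives, and 0.73 for SARS. VARS and FARSB are the pair of these that passed in opposite directions against 2D, higher at day 7 and lower at day 14.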

How the results depend on the processing

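Counts are of 20 cytosolic or 16 mitochondrial genes, and medians are log2 fold changes. Scaling by total counts moved the median of all tested genes by -0.16 at day 7 and -0.18 at day 14. It gave day 7 medians of -0.22 (cytosolic) and 0.38 (mitochondrial), 12 cytosolic genes lower at day 14 and 1 higher between day 7 and day 14. Also 1 higher there were the counts with filterByExpr, with no filter on low counts and with only the 6 samples of the contrast, while no filter left 4 cytosolic genes lower at day 7. At day 7, 1 mitochondrial gene (NARS2) was lower with total counts, with TMM factors set without immunoglobulin, ribosomal protein and mitochondrially encoded genes, with DESeq2, with only the 6 samples, with the replicate block and with the block and the gene length trend removed. At day 14, 1 mitochondrial gene (VARS2) was higher with DESeq2, with the length trend removed and with the block and that trend. The cause of these shifts was not tested.

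Leaving out each sample in turn gave day 7 medians of -0.14 to 0.0015 (cytosolic, above 0 without 3D_7d replicate 1) and 0.41 to 0.54 (mitochondrial, lowest without 3D_7d replicate 3), and, at day 7, 6 (without 2D replicate 3 or 3D_7d replicate 3) to 12 (without 3D_14d replicate 1) mitochondrial genes higher and 0 to 1 lower. At day 7 it also gave 5 to 6 cytosolic genes higher and 6 to 9 lower (9 without 3D_14d replicate 1). At day 14 it gave 1 to 2 cytosolic genes higher (1 without 2D replicate 3), 4 to 9 lower (4 without 2D replicate 2 or 3), 0 to 2 mitochondrial genes higher and mitochondrial medians of -0.23 to 0.055, the last without 3D_14d replicate 1. Between the time points it gave 1 to 5 cytosolic genes higher and 7 (without 3D_7d replicate 2) to 14 mitochondrial genes lower. The fewer samples in these fits also change the shared spread.

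Deviations of samples with the same replicate number from their group means correlated at -0.100 to 0.185. Those between 2D and 3D_14d were positive (0.185, 0.108 and 0.0931) and the others negative. Samples of unlike numbers were not compared, so whether the numbers pair the samples was not tested. The replicate block changed 4 of 108 member calls, with GARS lower at day 14, AARS2 higher and NARS2 lower at day 7, and CARS2 no longer lower between the time points. Of 1026 values of the 18 members under the alternatives, 928 kept their direction and side of the threshold, 37 lost and 41 gained a call, and 20 changed sign, none of them a value past the threshold in the fit reported above. LARS2 at day 14 became -0.16 with total counts, -0.00168 with TMM set without the named genes, -0.035 with no filter and -0.011 with the replicate block, and ran from -0.14 to 0.24 without single samples. WARS became -0.035 (day 7) and -0.13 (day 14) with total counts, -0.00936 with no filter and -0.0066 with the replicate block at day 14, and 0.0073 between the time points with the length trend removed. Without single samples WARS ran from -0.000773 to 0.20 at day 7, from -0.13 to 0.31 at day 14 and from -0.25 to 0.20 between the time points, and LARS from -0.12 to 0.029.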
